A study of Mus musculus with 5 samples.

Results

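The genes of the constitutive proteasome were followed in immune cells of mouse B16-F10 melanoma. Members were chosen by name alone: every gene called Psma, Psmb, Psmc or Psmd with a digit was taken, without the 3 immunoproteasome genes Psmb8, Psmb9 and Psmb10 and without pseudogenes. This gave 37 of the 28692 genes counted, of which 36 had at least 20 UMIs (unique molecular identifiers, 1 per captured RNA molecule) over 8 gated cell classes. The remaining member, Psmb11, a core subunit of the thymus, had 1 UMI. Psma8, a core subunit of the testis, had 91 UMIs. Psmc3ip, with 2082 UMIs, matches the name rule but encodes a recombination cofactor and no proteasome subunit. The other 34 members are 31 subunits and the 3 assembly chaperones Psmd5, Psmd9 and Psmd10, with 3588 UMIs for Psmd5 up to 86998 for Psma7. Medians and sums below are over these 34 genes, and so are the counts of members in comparisons of treatments. Counts by edgeR also include Psmc3ip, and Psma8 where it was tested.

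The study sorted live CD45+ cells from B16-F10 tumors, a melanoma line that had been implanted under the skin at 500000 cells per mouse and was resected on day 11. The 5 groups were mice given the anti-PD1-IL15 fusion protein (fusion), an IL15 superagonist with anti-PD1 (combination), the IL15 superagonist, anti-PD1, and PBS. The label texts place treatment after resection, and the tag of the combination names IL15 where its title names the superagonist. Each group was 1 library made with a droplet 5' kit, and the labels give neither the number of mice per library nor their strain. There was thus no replicate of any treatment: values between treatments carry 95% intervals that cover counting error only, and no test between treatments was made.

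The proteasome is the protease that degrades proteins tagged with ubiquitin. Its core is a stack of 4 rings, with outer rings of alpha subunits (Psma) that gate the channel and inner rings of beta subunits (Psmb), of which Psmb5, Psmb6 and Psmb7 cut the chain. A regulatory cap binds the core: its base holds the ATPases Psmc1 to Psmc6, which unfold the substrate, and its lid, of Psmd subunits, removes ubiquitin. In immune cells exposed to interferon, Psmb8, Psmb9 and Psmb10 can take the places of Psmb5, Psmb6 and Psmb7, which changes the peptides made for antigen presentation.

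The regions before the start sites of proteasome genes are shown because many members moved together, as described below. RefSeq windows of build GRCm38.p6 were matched to 30 of the 37 members, and those of Psma8, Psmb1, Psmb2, Psmb7, Psmc3, Psmd3 and Psmd7 were not. The motif CCGGAAG, a core of sites bound by ETS-family factors, lay within 250 bases upstream on either strand in 10 members (33.3%), namely Psma6, Psmc1, Psmc2, Psmc3ip, Psmc6, Psmd2, Psmd4, Psmd6, Psmd11 and Psmd12, against 7.83% of the 27025 genes with a window. The motif TGACNNNGC, an antioxidant response element of the kind bound by Nfe2l1 and its relatives, lay in 5 members (16.7%), Psmb5, Psmb6, Psmc6, Psmd9 and Psmd12, against 11.5% of genes. GGGCGG lay in 17 members (56.7%) against 35.4% of genes, CCAAT in 13 (43.3%) against 37.5%, and CACGTG in 2 (6.67%) against 6.86%. Matches of different motifs were counted separately, also where they shared bases, and a match is a description of the sequence only. For 5 members, 100 bases that end at the annotated gene or just before it are given 5′ to 3′ on the gene's own strand, with the matched motif in capitals. In Psmc2, Psmd2 and Psmd11 the capitals read CTTCCGG, the reverse complement of CCGGAAG.
Psmb5 (chr14:54618023-54618122, minus strand): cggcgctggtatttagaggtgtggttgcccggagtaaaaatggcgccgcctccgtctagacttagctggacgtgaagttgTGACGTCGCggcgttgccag
Psmb6 (chr11:70525257-70525356, plus strand): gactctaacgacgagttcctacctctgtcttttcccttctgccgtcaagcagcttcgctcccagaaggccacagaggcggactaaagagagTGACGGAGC
Psmc2 (chr5:21785175-21785274, plus strand): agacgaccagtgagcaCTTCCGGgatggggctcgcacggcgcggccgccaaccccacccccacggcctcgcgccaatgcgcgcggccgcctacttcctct
Psmd2 (chr16:20651552-20651651, plus strand): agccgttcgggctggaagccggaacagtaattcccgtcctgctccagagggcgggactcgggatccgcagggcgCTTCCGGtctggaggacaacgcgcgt
Psmd11 (chr11:80428515-80428614, plus strand): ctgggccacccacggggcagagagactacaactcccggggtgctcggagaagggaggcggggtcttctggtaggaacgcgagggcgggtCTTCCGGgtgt
Psmb5 and Psmb6 are 2 of the 3 catalytic subunits, and their motifs began 47 and 9 bases before the RefSeq start. Psmc2 had the highest ratio of fusion to PBS in CD8 T-gated cells and Psmd2 one of the lowest, and both held CCGGAAG.

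The libraries held 8747 (fusion), 8577 (combination), 6779 (IL15 superagonist), 7350 (anti-PD1) and 6015 (PBS) cell barcodes, with 81565425, 55152013, 39479966, 50251271 and 32832856 UMIs. The members took 0.585%, 0.491%, 0.471%, 0.524% and 0.444% of UMIs in the same order of libraries, and the median depth per barcode was 7851, 4933, 4279, 5667 and 4498 UMIs. Pairs of libraries shared 61 to 104 barcodes. Cells were gated by marker genes. CD8 T-gated cells numbered 6407, 3044, 1824, 1039 and 855, and macrophage-gated cells, with C1q genes, 354, 835, 750, 1529 and 1162. Levels are given as CPM, the UMIs of a gene scaled to a total of 1000000 per class and library. Melanoma genes summed to 0 to 40.6 CPM in the classes compared, except 126 CPM in the 46 dividing macrophage-gated cells of the combination library. CD3 genes summed to 33.7 CPM in macrophage-gated cells of the fusion library and to 8.95 to 10.4 CPM in those of the others. In sums over cells, fewer expressing cells and less RNA per cell cannot be told apart.

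Dividing CD8 T-gated cells had higher levels of nearly the whole complex than non-dividing ones. Within libraries, 30 of 35 members tested were higher in dividing cells and 0 were lower by edgeR's quasi-likelihood test with Benjamini-Hochberg adjustment, where 27.9% of the 10487 genes tested were higher and 25.3% were lower. The median log2 difference over the 34 members was 0.48, against 0.00 over all genes. All 7 alpha subunits (Psma1 to Psma7), the 3 catalytic subunits, 3 of 4 other beta subunits (Psmb2, Psmb3, Psmb4), 5 of 6 ATPases (Psmc1, Psmc2, Psmc3, Psmc4, Psmc6), 7 of 8 lid subunits (Psmd3, Psmd6, Psmd7, Psmd11, Psmd12, Psmd13, Psmd14), Psmd1 and Psmd2 of the base, and the chaperones Psmd5 and Psmd9 rose. The largest rise was that of Psmc3ip, the recombination cofactor that is no subunit.

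Psmc3ip had 24.2, 23.3, 24.1, 25.7 and 24.2 CPM in dividing cells of the fusion, combination, IL15 superagonist, anti-PD1 and PBS libraries, against 5.06, 2.96, 1.41, 7.44 and 3.13 CPM in non-dividing cells. Its log2 difference was 2.67 ± 0.23 (SE, 5 libraries), with an adjusted p of 2.32e-06. Psmd1, a large scaffold of the base, had 71.2, 81.7, 75.9, 67.4 and 82.9 CPM in dividing cells of the libraries in that order, against 46.5, 43.0, 44.6, 43.1 and 52.7 CPM in non-dividing cells. For both genes every dividing value lay above every non-dividing one; the log2 difference of Psmd1 was 0.72 ± 0.08 (SE), with an adjusted p of 1.52e-05. The gene of Psmd1 overlaps Gm21972 on the same strand, so its count may include reads of that gene. Psma2 likewise overlaps AW209491 on the same strand, and the same limit holds for its counts below.

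The catalytic subunits moved together. Psmb6, which cuts after acidic residues, had 315, 304, 295, 295 and 200 CPM in dividing cells of the fusion, combination, IL15 superagonist, anti-PD1 and PBS libraries, against 210, 179, 154, 190 and 154 CPM in non-dividing cells, a log2 difference of 0.65 ± 0.08 (SE; adjusted p 3.53e-05). Psmb5, which cuts after hydrophobic residues, had 294, 304, 287, 280 and 208 CPM in dividing cells, against 215, 210, 179, 207 and 160 CPM in non-dividing cells, a difference of 0.49 ± 0.06 (SE; adjusted p 6.69e-05). Psmb7, which cuts after basic residues, had 111, 105, 109, 116 and 95.8 CPM in dividing cells, against 78.5, 71.8, 66.4, 81.8 and 84.0 CPM in non-dividing cells, a difference of 0.49 ± 0.08 (SE; adjusted p 0.000334). Each was higher in dividing cells in 5 of 5 libraries; for Psmb5 and Psmb6 the dividing PBS cells lay below the non-dividing fusion cells, while for Psmb7 the groups did not overlap. Psma4, of the alpha ring, had 231, 223, 222, 186 and 166 CPM in dividing cells, against 160, 134, 116, 135 and 106 CPM in non-dividing cells, again without overlap.

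The 5 members that did not pass were Psmb1, Psmc5, Psmd4, Psmd8 and Psmd10. Psmb1, a beta subunit that cuts no chain in mammals, had 477, 419, 402, 393 and 307 CPM in dividing cells, against 489, 439, 398, 438 and 373 CPM in non-dividing cells, a log2 difference of -0.11 ± 0.06 (SE; adjusted p 0.134). It was the member with the lowest difference, and it was higher in dividing cells in 1 of 5 libraries. Psmd4, the ubiquitin receptor of the base, differed by 0.03, Psmd10 by 0.08, Psmd8 of the lid by 0.18 and the ATPase Psmc5 by 0.19, with adjusted p of 0.699, 0.531, 0.0502 and 0.123. Markers moved with division too: the CD3 genes summed to 2118 to 3052 CPM in dividing cells against 2924 to 4133 CPM in non-dividing cells, and the monocyte list, whose Ly6c2 T cells also express, to 1218 to 1463 CPM against 1508 to 2375 CPM. Their part in the result was not tested. Dividing cells were deeper, with a median of 10029.5 to 14797 UMIs per cell over the libraries against 4221 to 5692 in non-dividing cells. With every cell thinned to 2000 UMIs and the gates redrawn, 12 members were called higher and 0 lower, where 1178 of 8134 genes were higher and 850 lower. The median log2 difference over the 35 members tested was then 0.25, against 0.49 with all UMIs. The redrawn gates held 1691 dividing and 2018 non-dividing cells of the fusion library, against 3766 and 1435 before, so depth and gating changed together.

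**Figure D1:**
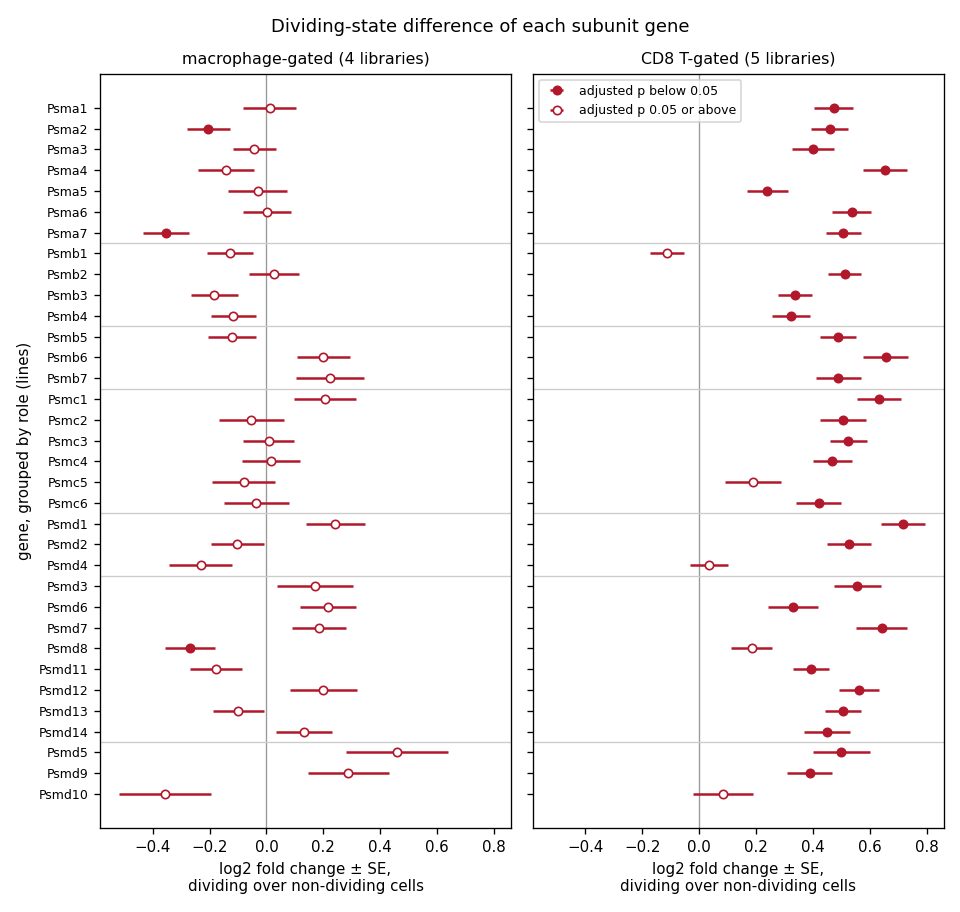
Log2 fold change of dividing over non-dividing cells (x axis, edgeR, bars are ± 1 SE) for each of the 34 members, grouped by role, in macrophage-gated cells over 4 libraries (left) and CD8 T-gated cells over 5 (right); filled points have an adjusted p below 0.05. In macrophage-gated cells the members scatter around 0, with a median of -0.03 (without scaling factors 11 of 35 were called higher, as were 2536 of 9880 genes), and in CD8 T-gated cells most lie right of 0, with Psmb1 at -0.11.

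Dividing macrophage-gated cells did not show this rise in the fitted differences. Their summed CPM of the 34 members was 1.08 (1.04 to 1.11), 1.10 (1.07 to 1.13), 1.005 (0.980 to 1.03) and 1.14 (1.11 to 1.18) times that of non-dividing ones. These are the combination, IL15 superagonist, anti-PD1 and PBS libraries, without scaling factors and with intervals for counting error only. In CD8 T-gated cells the same ratio was 1.23 to 1.47. Over the 4 libraries with at least 30 such cells, 1 of 35 members was higher in dividing cells and 3 were lower, where 17.0% of 9880 genes were higher and 18.5% lower, and the median log2 difference over the 34 members was -0.03. The member that rose was again Psmc3ip, with 12.1, 18.1, 15.8 and 18.4 CPM in dividing cells of the combination, IL15 superagonist, anti-PD1 and PBS libraries, against 1.11, 0.936, 2.24 and 1.87 CPM in non-dividing cells, a log2 difference of 3.14 ± 0.33 (SE; adjusted p 2.92e-06). Psma7, of the alpha ring, had 442, 390, 374 and 368 CPM in dividing cells, against 488, 410, 482 and 418 CPM in non-dividing cells, and was lower in 4 of 4 libraries (-0.35 ± 0.08, SE; adjusted p 0.00286). Psmd8 and Psma2 were lower in 3 of 4 and 4 of 4 libraries, with log2 differences of -0.27 and -0.20 and adjusted p of 0.0267 and 0.0491. The count of lower members was 1 without the PBS, the anti-PD1 or the IL15 superagonist library and 2 without the combination library, and that of higher members was 3 without anti-PD1 and 2 without PBS or the combination. In these fits 1239 to 1472 genes were higher and 1426 to 1571 lower, of 9613 to 9888.

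Psmb6 was higher in dividing macrophage-gated cells in each of the 4 libraries, with 625, 544, 467 and 491 CPM against 383, 402, 420 and 445 CPM, but its fitted difference of 0.20 ± 0.09 (SE) did not pass (adjusted p 0.111). Psmb7 differed by 0.22 and Psmb5 by -0.12, with adjusted p of 0.168 and 0.302. These directions depend on the scaling between classes. Without scaling factors the median of all genes moved to 0.16 and Psmb5 turned to 0.04. In that fit 11 of 35 members were called higher and 0 lower, where 2536 of 9880 genes were higher and 1246 lower. Dividing macrophage-gated cells also differed from the others in cell markers: the monocyte list summed to 216 to 333 CPM against 1546 to 2553 CPM in non-dividing ones, and C1q genes to 10880 to 12890 CPM against 6678 to 7635 CPM. The part of these markers in the result was not tested. A library with 22 dividing cells, fusion, was left out.

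The difference between the 2 classes was tested itself, as the rise in macrophage-gated cells minus that in CD8 T-gated cells. It was negative and passed the test for 22 of 35 members and was positive for 0, where 12.2% of 10576 genes passed as lower and 6.30% as higher. The largest were in the alpha ring: Psma7 had a difference of -0.91 ± 0.10 (SE; adjusted p 1.70e-05), Psma4 of -0.85 and Psma2 of -0.70. Psmb5 (-0.64) and Psmb6 (-0.50) passed, with adjusted p of 0.000572 and 0.0168, and Psmb7 (-0.29) did not, with an adjusted p of 0.237. Of the roles, 6 of 7 alpha subunits, 5 of 6 ATPases, 4 of 8 lid subunits and 0 of 3 Psmd chaperones passed. With no scaling factors the count was 12, where 749 of 10576 genes passed as lower. With gate minimums doubled it was 8 (over 3 libraries), where 519 of 10147 genes did. Leaving out 1 library at a time gave 15 (without the combination, 762 of 10322 genes) to 22 (without PBS, 1094 of 10856 genes).

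**Figure D2:**
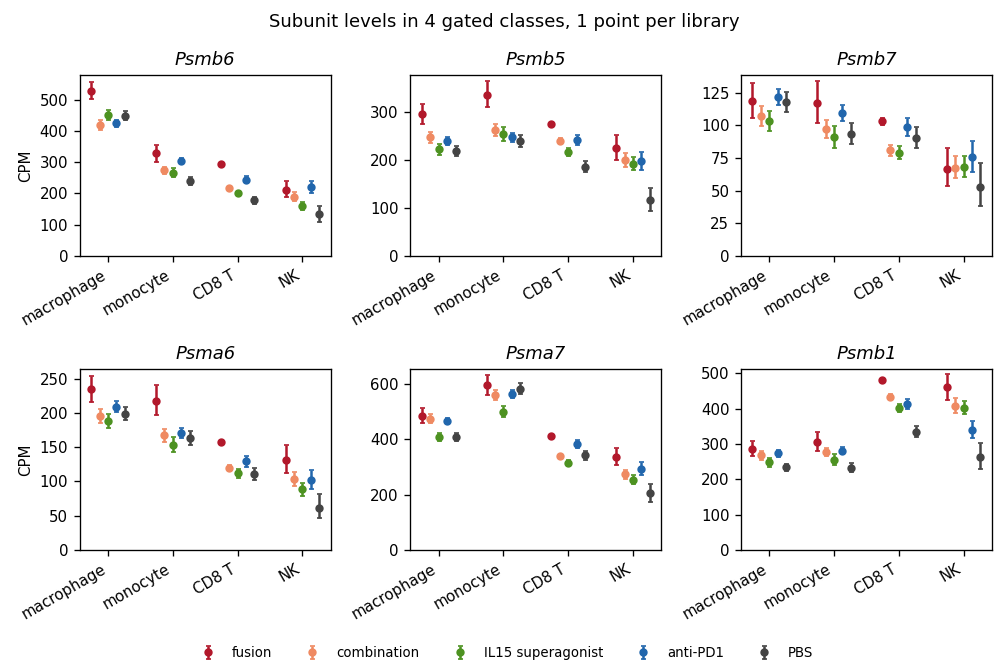
Levels in CPM (y axis, from 0) of the catalytic subunits Psmb6, Psmb5 and Psmb7 and of Psma6, Psma7 and Psmb1 in 4 gated classes, with 1 point per library and 95% Poisson intervals that cover counting error only. Psmb6 stands apart in macrophage-gated cells, at 419 to 528 CPM, and Psmb1 is lower there, at 234 to 287 CPM, than in CD8 T-gated cells, at 335 to 481 CPM.

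Between cell classes, macrophage-gated cells had more proteasome RNA per total than CD8 T-gated cells, and the class difference was uneven across subunits. Summed over the 34 members, macrophage-gated cells had 6342, 5625, 5339, 5776 and 5048 CPM in the fusion, combination, IL15 superagonist, anti-PD1 and PBS libraries, against 5888, 4768, 4547, 4901 and 3990 CPM in CD8 T-gated cells. The ratio of these sums was 1.08, 1.18, 1.17, 1.18 and 1.27. By edgeR, 29 of 36 members were higher and 2 lower in macrophage-gated cells, where 36.0% of 11788 genes were higher and 38.2% lower. The fit scales between classes, and without scaling factors the median of all genes moved to -0.27. The counts were then 20 higher and 4 lower, where 3584 of 11788 genes were higher and 5507 lower.

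Psmb6 had the largest difference of the 34 members. It had 528, 419, 451, 424 and 448 CPM in macrophage-gated cells of the fusion, combination, IL15 superagonist, anti-PD1 and PBS libraries, against 293, 217, 201, 244 and 178 CPM in CD8 T-gated cells. The groups did not overlap, and the log2 difference was 1.23 ± 0.10 (SE; adjusted p 8e-06). Psma6, of the alpha ring, had 235, 195, 188, 209 and 199 CPM in macrophage-gated cells, against 158, 119, 112, 129 and 110 CPM in CD8 T-gated cells, with a difference of 0.93 ± 0.08 (SE; adjusted p 1.31e-05). The other catalytic subunits differed less, Psmb7 by 0.55 (adjusted p 0.000328) and Psmb5 by 0.29 (adjusted p 0.0109).

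Psmb1 ran the other way. It had 287, 268, 248, 273 and 234 CPM in macrophage-gated cells, against 481, 434, 402, 413 and 335 CPM in CD8 T-gated cells, and its log2 difference was -0.44 ± 0.08 (SE; adjusted p 0.00129). No library of one class overlapped the other. Psmc3ip was also lower in macrophage-gated cells, at a mean of 4.17 CPM against 13.2 CPM (-1.39, adjusted p 0.000479). Psma8, the testis subunit related to Psma7, gave 1, 13, 8, 19 and 5 UMIs in macrophage-gated cells and 2, 6, 5, 10 and 6 in monocyte-gated cells of the libraries in that order, against 4, 0, 0, 1 and 0 in CD8 T-gated cells. NK-gated cells had 0 UMIs of Psma8 in every library. Its fitted log2 difference of 4.60 (adjusted p 0.000395) between macrophage-gated and CD8 T-gated cells rests on these few molecules and depends on the prior count.

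CD8 T-gated cells in turn had more proteasome RNA than NK-gated cells. Of 35 members 21 were higher in CD8 T-gated cells and 0 lower, where 24.2% of 10712 genes were higher and 22.0% lower. All 7 alpha subunits and the 3 catalytic subunits were among them, but only 2 of 6 ATPases (Psmc1 and Psmc5) and none of the 3 Psmd chaperones. After Psmc3ip (1.47 ± 0.20, SE; adjusted p 0.000258), the largest differences were those of Psmd1 and Psmd7. Psmd1 had 65.1, 55.5, 55.0, 57.7 and 70.2 CPM in CD8 T-gated cells of the fusion, combination, IL15 superagonist, anti-PD1 and PBS libraries, against 40.9, 40.8, 35.6, 39.1 and 40.7 CPM in NK-gated cells (0.56 ± 0.09, SE; adjusted p 0.000467). Psmd7, the lid partner of the deubiquitinase Psmd14, had 79.6, 63.4, 63.5, 58.6 and 52.3 CPM against 58.1, 41.1, 39.8, 45.2 and 29.6 CPM (0.54 ± 0.09, SE; adjusted p 0.000782). The CD8 T-gated values of Psmd1 all lay above the NK-gated ones, while those of Psmd7 overlapped between libraries. Psmb7 differed by 0.39, Psmb5 by 0.29 and Psmb6 by 0.27, with adjusted p of 0.00910, 0.0165 and 0.0206. The count fell to 10 with cells thinned to 2000 UMIs, where 1396 of 8657 genes were higher, and to 6 without the library as a block, where 1378 of 9947 genes were. Division genes summed to 478 to 1599 CPM in CD8 T-gated cells over the libraries, against 51.7 to 581 CPM in NK-gated cells, and were higher in CD8 T-gated cells in each library. Their part in the result was not tested. NK-gated cells were the shallower, with medians of 2636 to 3965.5 UMIs per cell against 4604 to 9067 in CD8 T-gated cells.

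Macrophage-gated and monocyte-gated cells had similar sums, with ratios of 1.01, 1.04, 1.02, 1.05 and 1.06. The median log2 difference was 0.003 over the 34 members and 0.005 over all genes, with single members called in both directions. In macrophage-gated cells 8 of 36 members were higher (Psmc3ip, Psmd5, Psmb6, Psmd9, Psmd7, Psmd1, Psmc1 and Psma6) and 6 lower (Psma7, Psma1, Psmb5, Psma2, Psmd13 and Psmb1), where 25.3% of 10883 genes were higher and 26.3% lower. Both shares are near those of all genes. Psmc3ip had 5.30, 2.64, 5.12, 3.93 and 3.84 CPM in macrophage-gated cells of the fusion, combination, IL15 superagonist, anti-PD1 and PBS libraries. In monocyte-gated cells it had 0, 1.09, 1.28, 0.963 and 1.23 CPM (1.79 ± 0.30, SE, adjusted p 7.87e-05). Psmb6 had 528, 419, 451, 424 and 448 CPM in macrophage-gated cells of the fusion, combination, IL15 superagonist, anti-PD1 and PBS libraries, against 328, 273, 266, 303 and 238 CPM in monocyte-gated cells (0.59 ± 0.06, SE; adjusted p 7.57e-07), with no overlap. Psma7 had 485, 476, 409, 467 and 409 CPM against 596, 560, 500, 565 and 584 CPM (-0.42 ± 0.06, SE; adjusted p 2.58e-05). Every monocyte-gated value of Psma7 was above every macrophage-gated one.

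Psmb5 had 295, 247, 222, 239 and 218 CPM in macrophage-gated cells against 335, 262, 254, 247 and 239 CPM in monocyte-gated cells (-0.23 ± 0.06, SE; adjusted p 0.00385). It was thus lower in 5 of 5 libraries while Psmb6 of the same ring was higher in 5 of 5. Psmd5, a chaperone that leaves before the complex is finished, had 14.0, 17.4, 17.8, 13.3 and 15.2 CPM in macrophage-gated cells, against 6.22, 7.06, 10.8, 10.6 and 10.9 CPM in monocyte-gated cells (0.60 ± 0.14, SE; adjusted p 0.00199). Its gene overlaps another on the opposite strand, Cutal, and no source used here gives the strand setting of the counting. Psma3, Psma4, Psma5, Psmb7, Psmc3, Psmc3ip, Psmd1, Psmd9 and Psmd13 also overlap genes on the opposite strand. Psma1, of the alpha ring, averaged 148 CPM in macrophage-gated and 169 CPM in monocyte-gated cells (adjusted p 0.00395). Psmb7 differed by 0.07 (adjusted p 0.327). Without scaling factors 13 members were higher and 1 lower, where 3586 of 10883 genes were higher and 2197 lower. Without the IL15 superagonist or the combination library 3 were lower, where 2593 of 10774 and 2552 of 10622 genes were.

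**Figure D3:**
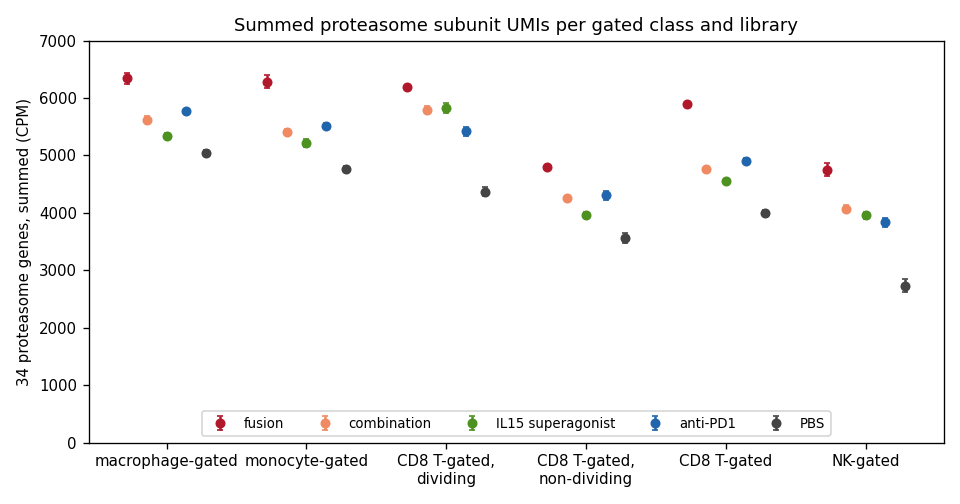
Summed level of the 34 members in CPM (y axis) by cell class and library, with 95% Poisson intervals that cover counting error only. In CD8 T-gated cells the fusion library has 5888 CPM and PBS 3990 CPM, and PBS is the lowest library in each class the text compares.

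Across treatments, the sum over the members was highest in the fusion library and lowest in PBS in each of the 4 classes compared. CD4 T-gated cells, 32 of them with fusion, had the same order, with 4726 CPM with fusion and 2977 CPM with PBS. Dendritic-gated cells, 49 of them with fusion, did not. They had 5698 CPM with fusion, below the superagonist (5785 CPM) and the combination (5755 CPM), and PBS was lowest (4829 CPM). In CD8 T-gated cells the sum was 5888 CPM with fusion, 4768 CPM with the combination, 4547 CPM with the IL15 superagonist, 4901 CPM with anti-PD1 and 3990 CPM with PBS. Fusion exceeded PBS 1.48-fold (95% interval 1.456 to 1.495), anti-PD1 exceeded it 1.23-fold, the combination 1.20-fold and the superagonist 1.14-fold. In NK-gated cells the sums were 4754, 4072, 3957, 3833 and 2734 CPM, and fusion exceeded PBS 1.74-fold (1.66 to 1.83). In monocyte-gated cells that ratio was 1.32 (1.29 to 1.35) and in macrophage-gated cells 1.26 (1.23 to 1.28). Fusion was the highest of the 5 libraries for 29 of 34 members in CD8 T-gated cells, where 25.6% of the 10016 genes with at least 200 UMIs had this order, and PBS was the lowest for 25 of 34, where 27.1% of genes had it.

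Member by member, the median log2 ratio of fusion to PBS in CD8 T-gated cells was 0.57, against -0.13 over all genes. Of 34 members 31 lay above 0 and 14 were at least 1.5-fold higher, where 17.5% of genes were; 0 were 1.5-fold lower, where 28.6% of genes were. The ATPases had a median of 0.68 (6 of 6 above 0), the beta subunits that do not cut 0.71 (4 of 4), the catalytic subunits 0.56 (3 of 3), the lid 0.59 (8 of 8), the alpha ring 0.51 (7 of 7) and the Psmd chaperones 0.51 (2 of 3). The other base subunits had a median of -0.07, with 1 of 3 above 0. With cells thinned to 2000 UMIs, shallower cells left out and the gates redrawn, 4782 CD8 T-gated cells of the fusion library and 596 of PBS remained, and the median over members was 0.55. Scaled by TMM it was 0.71, with a median of all genes of 0.02, and with totals that leave out ribosomal, mitochondrial and T-cell receptor genes it was 0.45.

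Psmc2, an ATPase of the base, had 87.6 CPM with fusion, 58.9 with the combination, 66.9 with the IL15 superagonist, 57.3 with anti-PD1 and 34.7 CPM with PBS in CD8 T-gated cells. Its ratio of fusion to PBS, 2.52 (95% interval 2.19 to 2.92), was the highest among members with at least 200 UMIs. PBS was also the lowest library for Psmc2 in NK-gated cells, with 73.9, 59.2, 60.3 and 41.9 CPM in the treated libraries in the same order against 28.4 CPM, in macrophage-gated cells, with 77.6, 69.0, 68.5 and 74.0 against 45.5 CPM, and in monocyte-gated cells, with 77.4, 65.5, 69.3 and 67.1 against 37.2 CPM. Psmc4, the next ATPase, had 111, 88.6, 87.2 and 74.8 CPM in the treated libraries and 52.5 CPM in PBS in CD8 T-gated cells, a ratio of fusion to PBS of 2.11 (1.88 to 2.38). Psmd8 of the lid had 245, 198, 194 and 192 CPM against 126 CPM in PBS, a ratio of 1.94 (1.80 to 2.09). For these 3 genes every treated library stood above PBS.

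Psmd1, Psmd2 and Psmd5 were the members with the lowest ratios. Psmd1 had 65.1, 55.5, 55.0 and 57.7 CPM with fusion, the combination, the superagonist and anti-PD1, against 70.2 CPM with PBS, and its ratio of fusion to PBS was 0.927 (0.837 to 1.03). Psmd2, the other large scaffold of the base, had 79.2, 75.9, 75.3 and 80.1 CPM against 82.9 CPM (0.956, 0.870 to 1.05), and Psmd5 had 21.2, 18.3, 19.9 and 18.1 CPM against 22.9 CPM (0.923, 0.771 to 1.11). PBS was thus the highest library for all 3, whereas it was the lowest for Psmc2 and Psmc4. Psmd1 was nevertheless higher in dividing cells, as given above.

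Of the catalytic subunits in CD8 T-gated cells, Psmb6 had 293, 217, 201 and 244 CPM with fusion, the combination, the superagonist and anti-PD1 and 178 CPM with PBS, and a ratio of fusion to PBS of 1.64 (1.54 to 1.75). Psmb5 had 274, 239, 216 and 241 CPM and 186 CPM with PBS, a ratio of 1.48 (1.39 to 1.57). Psmb7 had 103, 80.8, 79.2 and 98.9 CPM and 90.5 CPM with PBS, a ratio of 1.14 (1.042 to 1.248). For Psmb5 and Psmb6 all treated libraries were above PBS, while for Psmb7 the combination (0.893, 0.808 to 0.987) and the superagonist (0.875, 0.784 to 0.977) were below it.

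**Figure D4:**
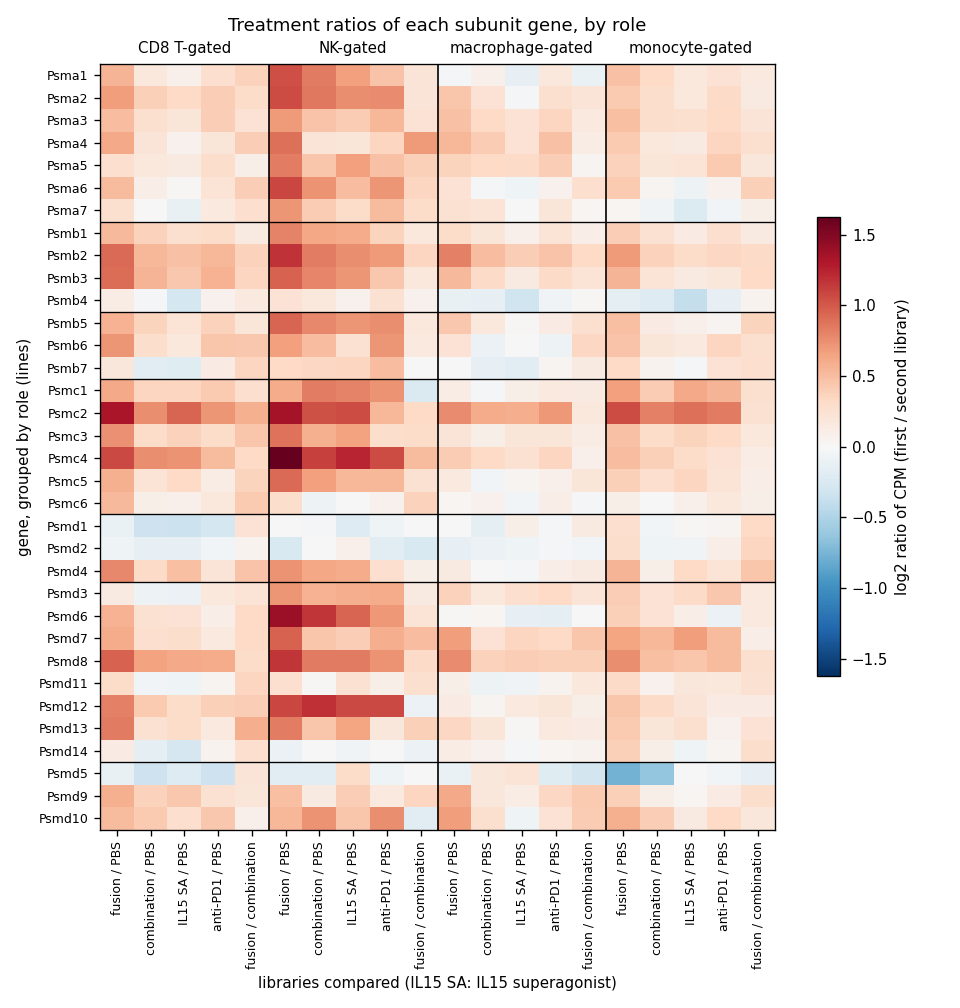
Log2 ratio (color scale) of each treatment to PBS and of fusion to combination for each of the 34 members (rows, by role) in CD8 T-gated, NK-gated, macrophage-gated and monocyte-gated cells (column blocks), with no replicates. In CD8 T-gated cells Psmc2 and Psmc4 carry the highest ratios of fusion to PBS, 2.52-fold and 2.11-fold, and Psmd1, Psmd2 and Psmd5 the lowest.

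The other treatments share the PBS library with fusion, so their ratios are given side by side only. The median log2 ratio to PBS in CD8 T-gated cells was 0.25 for the combination, 0.23 for the superagonist and 0.24 for anti-PD1. Members at least 1.5-fold higher numbered 3 (12.4% of genes), 3 (15.0%) and 2 (8.07%), and 0 were as much lower in each (19.0%, 19.4% and 10.9% of genes). Psmc2, Psmc4 and Psmd8 were the 3 for the combination, at 1.69-fold, 1.69-fold and 1.57-fold, and for the superagonist, at 1.93-fold, 1.66-fold and 1.53-fold. For anti-PD1 they were Psmc2 and Psmd8, at 1.65-fold and 1.52-fold, followed by Psmb3 of the beta ring at 1.47-fold. Psmd1 was the lowest for the combination, 0.790 (0.705 to 0.887), and for the superagonist, 0.784 (0.690 to 0.891), where Psmb4 at 0.819 and the deubiquitinase Psmd14 at 0.827 came next. Psmd5 was the lowest for anti-PD1, 0.790 (0.620 to 1.01), an interval that includes 1.

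The fusion joins anti-PD1 and IL15 in 1 protein while the combination gives 2 agents, and this comparison does not use the PBS library. In CD8 T-gated cells the summed level was 1.23-fold higher with fusion (1.23 to 1.24), and 34 of 34 members had a ratio above 1, with a median log2 ratio of 0.33 against -0.07 over all genes. Psmc3ip, outside the 34, had 19.5 CPM with fusion and 8.70 CPM with the combination. Of the 34, only Psmd13 of the lid reached 1.5-fold, where 13.2% of genes did (18.0% were as much lower, and 0 members), with 168 CPM against 111 CPM, 1.51-fold (1.44 to 1.58). Psmc2 followed at 1.49 (1.40 to 1.58) and Psmd4 at 1.38 (1.31 to 1.44), while Psmd2 at 1.04 (0.986 to 1.10), Psmd10 at 1.06 (0.975 to 1.16) and Psma5 at 1.07 (1.03 to 1.12) were lowest. Psmb6 was 1.35-fold, Psmb7 1.28-fold and Psmb5 1.15-fold higher.

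Dividing cells made up different shares of the CD8 T-gated cells of these libraries: 3766 of 6407 with fusion, 357 of 3044 with the combination, 180 of 1824 with the superagonist, 304 of 1039 with anti-PD1 and 236 of 855 with PBS. Within dividing cells the sum was 6198, 5796, 5824, 5422 and 4369 CPM in that order of libraries, and within non-dividing cells 4792, 4263, 3958, 4308 and 3562 CPM. The ratio of fusion to combination was then 1.07 (1.06 to 1.08) in dividing and 1.12 (1.11 to 1.14) in non-dividing cells, against 1.23 over all CD8 T-gated cells. The ratio of fusion to PBS was 1.42 in dividing and 1.35 in non-dividing cells, against 1.48 over all. Against PBS, 13, 7, 8 and 3 members of dividing cells were at least 1.5-fold higher with fusion, the combination, the superagonist and anti-PD1 (16.8%, 11.0%, 13.1% and 7.66% of genes), and 13, 6, 5 and 2 members of non-dividing cells (17.4%, 14.0%, 16.4% and 10.1%). Between fusion and the combination 0 members were so in either state (8.38% of genes in dividing and 10.1% in non-dividing cells). Between the gates, with 1 or 2 UMIs of the division genes or 1 gene of them, lay 1206 cells of the fusion library and 205 to 548 of the others.

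In NK-gated cells the median log2 ratio of fusion to PBS was 0.82, with 24 of 34 members at least 1.5-fold higher, where 23.7% of genes were. Division genes summed to 581, 81.1, 51.7, 311 and 122 CPM in NK-gated cells of the fusion, combination, IL15 superagonist, anti-PD1 and PBS libraries. Median depth was 3965.5 UMIs per cell with fusion and 2636 with PBS. The part of division and depth in these ratios was not tested. Psmc4 had 119 CPM with fusion and 38.3 CPM with PBS in NK-gated cells, 3.12-fold (2.11 to 4.75). Members at least 1.5-fold above PBS in NK-gated cells numbered 16 with the combination (18.6% of genes), 17 with the superagonist (19.9%) and 13 with anti-PD1 (13.6%). In macrophage-gated cells the median was 0.24 and 6 of 34 members passed 1.5-fold (7.30% of genes), with Psmb2 of the beta ring highest among members with at least 200 UMIs, at 341 CPM with fusion and 193 CPM with PBS, 1.76-fold (1.62 to 1.92). In monocyte-gated cells the median was 0.43 and 5 of 34 passed (13.7% of genes), led by Psmc2 at 2.08-fold (1.67 to 2.59). Psmb4 was below 1 in both myeloid classes, at 0.919 (0.842 to 1.00) in macrophage-gated and 0.901 (0.807 to 1.00) in monocyte-gated cells, and Psmd5 was at least 1.5-fold lower in monocyte-gated cells with fusion (22.4% of genes) and with the combination (14.8% of genes), with 11 UMIs with fusion and 52 with the combination, against 62 with PBS. No other of the 34 members was 1.5-fold lower than PBS in these 3 classes in any treatment. The share of all genes as much lower is given only for fusion and the combination in monocyte-gated cells. Nothing is read from the absence elsewhere. The other treatments put 1 of the 34 members past 1.5-fold higher in macrophage-gated cells (combination 5.09% of genes, superagonist 7.83%, anti-PD1 6.61%), and in monocyte-gated cells 1 with the combination (8.79%), 3 with the superagonist (10.4%) and 1 with anti-PD1 (9.44%). Fusion exceeded the combination 1.5-fold in 1 of the 34 members in NK-gated cells (11.8% of genes) and in 0 in macrophage-gated (5.53%) and monocyte-gated cells (7.76%). Its summed level was 1.17-fold, 1.13-fold and 1.16-fold that of the combination in these classes.

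The ratio to PBS rests on that library. With anti-PD1 as the denominator the median log2 ratio of fusion was 0.27 in CD8 T-gated, 0.31 in NK-gated, 0.07 in macrophage-gated and 0.18 in monocyte-gated cells, and that of the combination was -0.02 and of the superagonist -0.09 in CD8 T-gated cells.

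**Figure D5:**
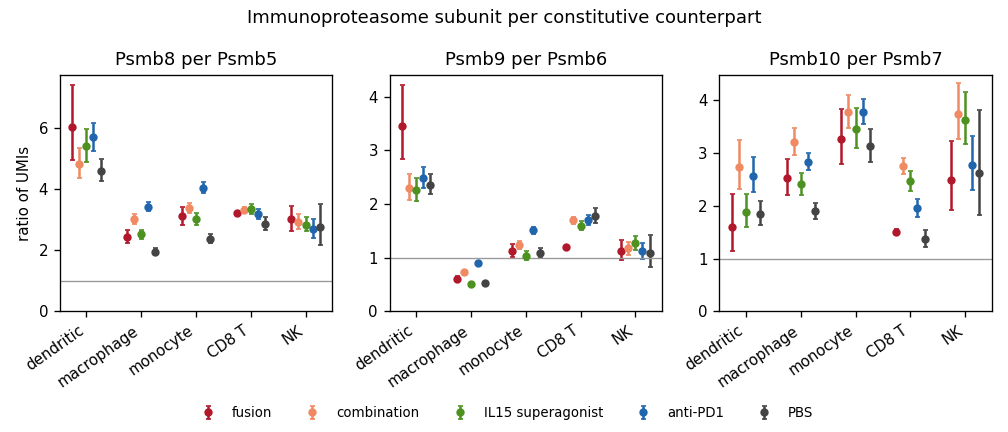
UMIs of each immunoproteasome subunit per UMI of its constitutive counterpart, by class and library (y axis, from 0), with 95% intervals that cover counting error only and a line at 1. Psmb9 per Psmb6 is lower in macrophage-gated cells, at 0.507 to 0.897, than in CD8 T-gated cells, at 1.20 to 1.78. The line marks equal UMIs only, since the capture of each RNA is not adjusted for.

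Each catalytic subunit was also set beside the immunoproteasome subunit that can replace it. A ratio of UMIs of 2 genes is not adjusted for how well each RNA is captured, so it is compared only between classes and libraries. Psmb9 gave 0.603, 0.730, 0.507, 0.897 and 0.527 UMIs per UMI of Psmb6 in macrophage-gated cells of the fusion, combination, IL15 superagonist, anti-PD1 and PBS libraries, against 1.20, 1.70, 1.59, 1.69 and 1.78 in CD8 T-gated cells. The classes did not overlap. Dendritic-gated cells had 3.45, 2.30, 2.26, 2.48 and 2.36 per Psmb6, above both. Psmb8 gave 2.44, 3.003, 2.52, 3.42 and 1.94 UMIs per UMI of Psmb5 in macrophage-gated cells and 3.22, 3.30, 3.34, 3.19 and 2.86 in CD8 T-gated cells, which overlapped. Dendritic-gated cells had 6.03, 4.82, 5.39, 5.68 and 4.60 per Psmb5, above both. Psmb10 gave 1.51, 2.76, 2.46, 1.96 and 1.38 UMIs per UMI of Psmb7 in CD8 T-gated cells, with the combination and the superagonist highest and PBS lowest. Macrophage-gated cells had 2.52, 3.21, 2.41, 2.83 and 1.89 per Psmb7, above CD8 T-gated cells in every library except the superagonist. Dendritic-gated cells had 1.59, 2.74, 1.88, 2.57 and 1.85 per Psmb7, for this pair below macrophage-gated cells in every library. Within dividing CD8 T-gated cells that ratio was 1.34, 1.91, 1.71, 1.64 and 1.32, against 2.26, 3.16, 2.995, 2.35 and 1.47 in non-dividing cells, so it was lower in the dividing cells of every library.

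Other protein-handling genes gave a measure of how far the pattern was shared. In CD8 T-gated cells the median log2 ratio of fusion to PBS was 0.53 over 7 chaperonin genes, which fold proteins (6 above 0, 2 at least 1.5-fold higher), and 0.42 over 77 genes of the mitochondrial ribosome (65 above 0, 24 higher, 1 lower). Over the 3 immunoproteasome genes it was 0.32, with Psmb8 at 883 CPM with fusion and 531 CPM with PBS. Over 31 other genes of the proteasome pathway, such as assembly factors, shuttles and ubiquitin genes, it was -0.05, with 6 higher and 7 lower. The farthest of these was Nfe2l1, a transcription factor that drives proteasome genes, at 11.6 CPM with fusion and 32.0 CPM with PBS, a log2 ratio of -1.46. Between fusion and PBS, 17.5% of all genes were at least 1.5-fold higher in CD8 T-gated cells and 28.6% as much lower. In the comparison of dividing with non-dividing CD8 T-gated cells, 6 of 7 chaperonin genes rose, 61 of 77 mitochondrial ribosome genes rose and 4 fell, and 2 of 3 immunoproteasome genes rose. Of the 31 pathway genes 16 rose and 4 fell, and the largest of these rises was that of Uchl5, a deubiquitinase of the cap, at 1.06 on the log2 scale. Of all genes 27.9% were higher and 25.3% lower in that comparison. In dividing macrophage-gated cells 35 of 77 mitochondrial ribosome genes were higher and 2 lower, 2 of 7 chaperonin genes were higher, and 8 of 31 pathway genes were higher and 5 lower, where 17.0% of all genes were higher and 18.5% lower.

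Over the 38 points of class and library with enough cells, most members correlated with the mean of the other members. Genes outside the 34 were not set beside them. Psmb2 followed the mean of the other members most closely (Pearson r = 0.94), then Psmb5 (0.92), Psma3 (0.91) and Psma4 (0.90). Psmd5 (-0.11), Psmd9 (-0.03) and Psmb1 (0.03) followed it least, and Psmd10 (0.42) and Psmd2 (0.59) came next. The points share libraries and depth, and the values are a description across them. The chaperones Psmd5, Psmd10 and Psmd9 also had the fewest UMIs of the 34 members over the classes: 3588, 6779 and 8890.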

How the data were processed

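Whole-number UMI counts per gene and barcode were used as deposited, and the submitters' processing notes name Cell Ranger 2.1.1 and mm10. Barcode filter and strand setting are not given in these sources. Cells over 10% mitochondrial UMIs or with markers of 2 lineages were left out, the only treatment of doublets. Cells were gated by marker genes: at least 3 UMIs of at least 2 genes for NK, myeloid and monocyte lists, 2 UMIs of Cd8a or Cd8b1, 5 of C1q genes, and 3 of 2 division genes (0 for non-dividing). UMIs were summed per class and library, and CPM are scaled to 1000000 UMIs of the class. Between treatments, 0.5 was added to counts before log2 ratios, intervals are exact Poisson or conditional 95% intervals, and genes needed at least 20 UMIs. Differences between classes were tested with edgeR 4.0.16 (glmQLFTest in R 4.3.3, TMM, filterByExpr, library as block) with Benjamini-Hochberg adjustment over all genes and a threshold of 0.05. The 5 libraries are 5 treatments, so these p-values hold spread between treatments, and nothing says that a library came from several mice. On simulated counts the fits between classes recovered 69.2% to 90.8% of genes changed 2-fold, 28.8% to 75.0% of those changed 1.5-fold and 0% to 25.4% of those with the smallest change simulated. The members, lists and gate minimums were chosen with earlier results of these data known. Every member is named. Given with values are, between treatments in CD8 T-gated cells, the 3 catalytic subunits and the 3 highest and 3 lowest ratios. Between classes they are the 3 largest differences in each direction that passed the test, not all with levels per library. Other examples were chosen after their values were seen. Alternatives included DESeq2 1.42.0. Promoter windows are RefSeq's.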

Additional observations from a re-analysis of the deposited data

Results flagged for a closer look

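The effect of division differed between the cell classes for 22 members, each with a smaller difference between dividing and non-dividing cells in macrophage-gated than in CD8 T-gated cells by the interaction test. The median interaction over the 34 members was -0.48, against -0.06 over all genes. No explanation was tested.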

How the results depend on the processing

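No paired analysis was possible between treatments because each had 1 library. For the medians of log2 ratios the direction kept under every alternative except another control. With anti-PD1 in place of PBS, the median for fusion was 0.27 in CD8 T-gated, 0.31 in NK-gated, 0.072 in macrophage-gated, 0.18 in monocyte-gated, 0.21 in dividing and 0.12 in non-dividing CD8 T-gated cells. For the combination it was -0.016, 0.039, -0.070, -0.025, 0.12 and -0.0075 in the same classes, and for the IL15 superagonist -0.091, 0.033, -0.11, -0.061, 0.12 and -0.14. TMM scaling gave 0.71 for fusion against PBS and 0.39 for fusion against the combination in CD8 T-gated cells, 0.24 for fusion against the combination in non-dividing cells, and 0.28 for the combination against PBS in macrophage-gated cells. Totals without ribosomal, mitochondrial and T-cell receptor genes gave, against PBS, 0.45 (fusion, CD8 T-gated), 0.16 (anti-PD1, CD8 T-gated), 0.13 (anti-PD1, dividing), 0.0094 (superagonist, non-dividing), 0.33 and 0.32 (combination and superagonist, NK-gated) and 0.35 (fusion, monocyte-gated). Thinning to 2000 UMIs gave, for fusion against the combination, 0.079 in NK-gated, 0.24 in macrophage-gated and 0.28 in non-dividing cells, and for anti-PD1 against PBS 0.37 in dividing cells.

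For dividing against non-dividing CD8 T-gated cells, thinning with redrawn gates left 12 members higher (1178 of 8134 genes), and doubled gate minimums gave 1 lower, as did leaving out the fusion library (leave-one-out range 0 to 1). For macrophage-gated cells the count of higher members was 11 without scaling factors, 2 with 2-lineage cells kept and 1 to 3 leaving out a library; that of lower members was 0 without scaling factors, 1 with DESeq2, with no replicate block, with doubled gates and with a minimum fold change, and 1 to 2 leaving out a library. CD8 T-gated against NK-gated cells gave 6 higher with no replicate block and 10 thinned. Macrophage-gated against CD8 T-gated cells gave 4 lower without scaling factors. Against monocyte-gated cells the higher count was 13 without scaling factors, 5 with no replicate block, 4 thinned and 4 with a minimum fold change, and the lower count 1 without scaling factors, 1 with no replicate block, 1 with a minimum fold change and 3 to 4 leaving out a library (3 without the IL15 superagonist or the combination library). The interaction gave 12 without scaling factors and 8 with doubled gates, and could not be run thinned. The cause was not tested. Among single genes 41 values lost and 5 gained their call and none turned direction with a call.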
